A study of Mus musculus with 29 samples.

Results

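S100a4, S100a6, S100a10, S100a11, Anxa1, Anxa2, Vim and Crip1 were followed across the cell types of mouse brain and blood after experimental stroke. These 8 genes, of 27827 in the deposited tables, are S100 calcium-binding proteins, annexins, the intermediate filament vimentin and a small LIM-domain protein, and were taken by name. The choice was made with earlier results of these data known, so the shares of all genes given beside the members are descriptions. These genes were compared between cells that infiltrate the brain and cells that reside in it. Single cells were profiled by Drop-seq, which captures each cell in a droplet with a barcoded bead, in 18 brain and 11 blood libraries of C57BL/6J mice. For stroke, the middle cerebral artery was occluded for a time and reopened, and controls had sham surgery. The young mice were males of 8 to 10 weeks. Their brains gave 4 sham libraries (day 2), 4 stroke libraries at day 2 and 4 more at day 14, and their blood gave 4 sham (day 2), 4 stroke day 2 and 3 stroke day 14 libraries. The aged mice were 17 to 20 months old and gave brain libraries only: sham at day 2 from 1 pool of males and 1 of females, stroke at day 2 from 1 of males and 2 of females, and stroke at day 14 from 1 of females. There is no sham library at day 14, so both stroke times were set against the same day 2 shams. Each brain library pooled 4 to 5 hemispheres, dissociated with papain in the presence of Brilliant Blue G, actinomycin D and AP-5. Microglia, cells with high CD45 and CD45-negative, Ly6c-high endothelial cells were then sorted. Each blood library pooled the leukocytes of 2 mice.

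S100 proteins are small EF-hand proteins, most of which bind calcium and then dock onto partners such as annexins and myosin. Annexins bind membrane phospholipids in a calcium-dependent way, link membranes to the actin cortex and take part in membrane repair and in the movement of leukocytes. Vimentin is the intermediate filament protein of leukocytes, endothelium and other mesenchymal cells, and gives a moving cell its mechanical strength.

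Among the S100 members, S100a4 binds non-muscle myosin and is known for cell motility, S100a6 (calcyclin) binds annexins and other targets, S100a10 (p11), whose EF hands do not bind calcium, forms a tetramer with annexin A2, and S100a11 pairs with annexin A1. Anxa1 encodes annexin A1, a glucocorticoid-induced ligand of formyl peptide receptors that restrains neutrophil recruitment. Anxa2 encodes annexin A2, which with p11 binds plasminogen at the cell surface. Crip1 encodes cysteine-rich protein 1, a LIM-domain protein of many immune cells.

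The 4 S100 members lie on chromosome 3 in the mouse genome (GRCm38, mm10, GENCODE release M21), all on the plus strand: S100a4 at chr3:90603771-90606045, S100a6 at chr3:90612882-90624181, S100a11 at chr3:93520488-93526287 and S100a10 at chr3:93555080-93564643. Anxa1 lies at chr19:20373428-20390944 on the minus strand, Anxa2 at chr9:69453620-69491795, Vim at chr2:13573927-13582826 and Crip1 at chr12:113146316-113153879, these 3 on the plus strand. S100a4 overlaps a predicted gene on its own strand, Anxa1 and Anxa2 overlap genes on the opposite strand, Anxa2 also overlaps the microRNA gene Mir3109 on its own strand, and S100a11 has a named pseudogene. Whether the authors' counting split reads among these is not given in the sources used here, so their counts are uncertain to that extent. RefSeq promoter windows (GRCm38.p6) were found for 7 of the 8, and S100a10 is named only. The AP-1 letters TGANTCA, searched on both strands, lie in the 250 bases before the RefSeq start of S100a11 and Anxa2, 2 of the 7, and in 6.75% of 32851 windows of that length. TATAAA lies in 4 of the 7 (S100a4, Anxa1, Anxa2 and Vim) and in 12.4% of all windows, and GGGCGG in 3 of the 7 (S100a11, Anxa2 and Crip1) and in 32.7%. The windows of S100a11 and Anxa2 are shown as the 2 that hold the AP-1 letters, and that of S100a4 as one that holds TATAAA without them. S100a6 and Vim, which rose in endothelium at day 2 with S100a11 and Anxa2, have no AP-1 match in their windows. All are plus-strand sequence ending before the first annotated base of the gene. The windows of S100a11 and Anxa2 are therefore cut at the GENCODE start, to 242 and 187 bases, and the TATAAA of Anxa2 lies in the part not shown. They are chr3:90603520-90603769 for S100a4, with TATAAA in capitals, and chr3:93520246-93520487 for S100a11 and chr9:69453433-69453619 for Anxa2, with TGAGTCA in capitals.
S100a4: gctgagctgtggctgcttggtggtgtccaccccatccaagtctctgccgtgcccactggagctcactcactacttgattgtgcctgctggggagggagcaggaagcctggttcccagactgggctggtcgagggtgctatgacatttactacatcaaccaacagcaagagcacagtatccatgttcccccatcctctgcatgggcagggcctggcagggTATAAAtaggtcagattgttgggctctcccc
S100a11: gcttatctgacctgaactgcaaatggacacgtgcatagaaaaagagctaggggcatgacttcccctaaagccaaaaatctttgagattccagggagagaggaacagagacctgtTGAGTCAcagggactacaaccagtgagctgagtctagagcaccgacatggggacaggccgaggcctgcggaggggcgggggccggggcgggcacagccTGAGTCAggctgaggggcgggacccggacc
Anxa2: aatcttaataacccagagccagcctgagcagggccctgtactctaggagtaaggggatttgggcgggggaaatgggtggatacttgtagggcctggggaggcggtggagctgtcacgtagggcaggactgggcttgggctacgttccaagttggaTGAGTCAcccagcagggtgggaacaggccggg
The TATAAA of S100a4 begins 31 bases before the RefSeq start, the TGAGTCA copies of S100a11 begin 136 and 38 bases before it, and that of Anxa2 begins 95 bases before it. These matches are letters in a window and were not tested as binding sites.

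Brain libraries held 1143 to 5121 cells and 819438 to 5855047 counts, and blood libraries 2360 to 6328 cells and 966914 to 5232662 counts, 106977 cells in all. Across the 406 pairs of libraries 368 cell barcodes were shared, at most 7 in a pair. Levels are in CPM, a gene's share of the counts summed over the cells of a type in a library, scaled to a common total, for types with at least 20 cells there. The codes are the authors' deposited types: in brain Mg (microglia), BAM (border macrophages) and EC (endothelial cells), counted as resident, and MdC (monocyte-derived cells), DC (dendritic cells), Gran (granulocytes) and Tc (T cells), counted as infiltrating. The codes counted as infiltrating were also present in young sham brain. Its libraries held 83 to 169 Gran and 43 to 70 Tc, against 53 to 148 and 53 to 90 at stroke day 2. MdC numbered 43 to 99 in sham and 1468 to 2180 at stroke day 2, and DC 61 to 86 and 163 to 414. In blood the codes used are Mo (monocytes), Neu (neutrophils), Bc (B cells), NK and Tc. Within each of these codes the list of its own type was the highest of the marker lists, except that the DC code had the monocyte-derived list highest in both tissues. A list could still be higher in another code. In young sham brain the dendritic sum was 2734 to 3378 CPM in Mg and 1262 to 1826 CPM in DC. How the codes were assigned is not given in the sources used here, and the members may have taken part in it. The deposited counts are fractional, and in Mg the members' values were often far below 1: against the same values rounded up per cell, 22.4% to 88.5% of the members' count was absent in sham Mg, and 0.484% to 3.82% in sham MdC. In BAM, 46.6% of the count of all genes was absent in stroke day 2 replicate 3 and 38.4% in sham replicate 4. Stroke replicate 3 at day 2 stood apart in Mg, with 58 cells and 26321 counts, 79.6% of the rounded-up count absent, and a summed microglial marker level of 816 CPM against up to 12470 CPM in the other 3. The Mg of replicate 3 also held the monocyte-derived marker Ly6c2 at 29.5% of the MdC level, against 0% to 0.999% in the other libraries. Fn1 (10.5% against 14.96% to 34.7%) and F10 were not highest there. Without this replicate, edgeR called 8 of 8 members higher in MdC than in Mg at day 2, as with it, and the changes of the 6 tested members in Mg against sham are given both ways. The fits on rounded-up counts were not repeated without it.

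All 8 genes were higher in MdC than in Mg of the same libraries at day 2 after stroke. S100a4, the myosin-binding motility protein, stood at 1972, 1134, 2715 and 2095 CPM in the MdC of the 4 libraries and at 36.2, 0.08, 244.9 and 0 CPM in their Mg. S100a6 stood at 1879, 1588, 2588 and 2576 CPM in MdC and at most 94.6 CPM in Mg, in replicate 3. Anxa2 stood at 1415, 975.6, 1435 and 1613 CPM in MdC and at 79.4, 48.1, 466.1 and 2.69 CPM in Mg. The Mg of replicate 3 were the highest for each of these, and still every MdC library lay above every Mg library.

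Vim, the filament gene, stood at 3197, 1618, 3510 and 3006 CPM in MdC and at 123.8, 84.1, 1236 and 4.78 CPM in Mg. Anxa1 had a mean of 359.8 ± 135.1 CPM in MdC and 4.58 ± 6.97 CPM in Mg (SD, n = 4 each). S100a10 had 1292 ± 453 against 32.3 ± 34.3 CPM, S100a11 1412 ± 234 against 26.5 ± 18.8 CPM and Crip1 1796 ± 437 against 113 ± 146 CPM (SD, n = 4 each). In Mg replicate 3 was the highest and replicate 4 at or near 0, which shows in the plot that joins the MdC and Mg of each library.

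**Figure D1:**
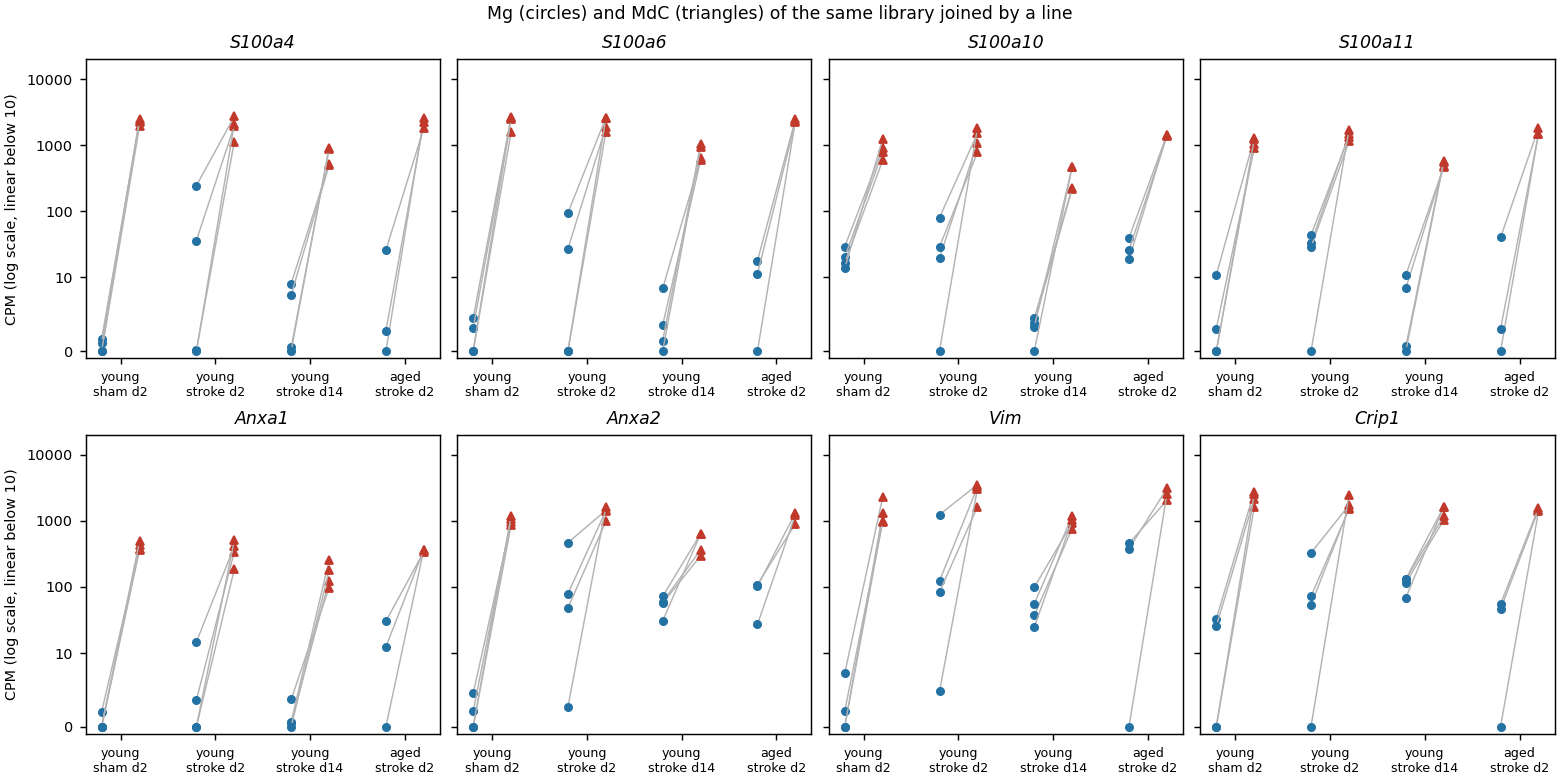
CPM of each gene (vertical axis, logarithmic and linear below 10) in Mg (circles) and MdC (triangles), with a line joining both types of 1 library, for young sham at day 2, young stroke at days 2 and 14 and aged stroke at day 2. Every line rises from Mg to MdC, and in each group every triangle lies above every circle.

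With the library as a block, edgeR called all 8 genes higher in MdC at day 2, with fold differences from 33.8 (Vim) to 511 (Anxa1) and adjusted p from 2.02e-09 to 7.17e-05. S100a4 was at 7.74 ± 0.87, Anxa2 at 5.15 ± 0.73 and Vim at 5.08 ± 0.79 (log2 difference ± SE). Across the 8981 genes tested, 24.1% were called higher in MdC, and the median log2 difference was 6.93 over the 8 members and 0.05 over all genes. The same 8 of 8 were called at day 14 (20.2% of all genes), in sham (14% of all genes) and in the 3 aged libraries at day 2 (19.4% of all genes), each without overlap of libraries. The median of the 8 was 6.85 at day 14, 9.21 in sham and 6.27 in aged stroke. In sham, 43 to 99 MdC per library were measured, and the Mg of all 4 libraries held 3.57 summed counts of S100a4, the member with the highest log2 difference there (11.35). The size of these differences depended on the fractional counts in Mg. With counts rounded up per cell all 8 were still called in each of the 4 comparisons, at a median of 5.61 at day 2 (4.36 to 6.43), 4.57 at day 14, 6.75 in sham and 5.22 in aged stroke. Sham Mg then held 31 counts of S100a4, with a difference of 8.53. The aged difference was lowest for Vim, at 4.03 with an adjusted p of 0.00598 by edgeR.

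Related genes were also called higher in MdC at day 2. Of 20 actin and migration genes, 17 were called higher, with a median of 0.80, led by Gsn (gelsolin, which severs actin filaments) at 4.20 ± 0.24 and Lsp1 (a leukocyte actin-binding protein) at 4.09 ± 0.22. Of the 9 partners and relatives, 6 were tested and 5 were called higher, with a median of 5.38. Among them Fpr2, a formyl peptide receptor for annexin A1, stood at 59.6 ± 11.7 CPM in MdC and 0.23 ± 0.46 CPM in Mg, and Ahnak, a large partner of p11 and annexin A2, at 295.7 ± 181.9 and 6.75 ± 7.20 CPM (SD, n = 4 each). Of 6 other annexins, 5 were tested, 4 were higher and 1 lower in MdC, with a median of 1.24, and Anxa5 was at 833.6 ± 92.9 against 312.5 ± 224.8 CPM (SD, n = 4 each). Anxa3 was called lower in MdC in sham, at 64.7 CPM in MdC and 605 CPM in Mg. Of 8 other S100 genes, 3 were tested and all 3 were higher in MdC.

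Whether the difference between MdC and Mg changed from day 2 to day 14 was tested as an interaction. Of the 8 terms (MdC minus Mg at day 14 against day 2), edgeR called 0, where 5.05% of all 11124 genes were called in either direction. An unadjusted p under 0.05 was reached by 2, and DESeq2 called 0. Crip1 changed by -2.22 on the log2 scale (adjusted p 0.253 by edgeR) and Anxa2 by -2.17 (0.201). With counts rounded up per cell, both were called (Crip1 -1.70, adjusted p 0.0080, and Anxa2 -1.58, 0.0057, by edgeR), where 7.36% of all genes were.

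Other infiltrating types differed from Mg in which members they carried. DC held all 8 genes above Mg at day 2 (8 of 8 called by edgeR, 25.8% of all genes), with log2 differences of 4.35 (Vim) to 8.62 (Anxa1), and only Vim overlapped between libraries. Rounded up per cell, the counts gave 3.72 to 6.16, with all 8 still called. S100a11 was 2075, 2250, 2043 and 2416 CPM and Crip1 3208, 3891, 3961 and 4233 CPM in DC, within a narrow band for both. Tc held 8 of 8 above Mg at day 14 (20.6% of all genes), from 2.15 (Anxa2) to 8.39 (S100a10), or from 1.83 to 6.20 with counts rounded up. Gran carried a different part of the set. There S100a6 (3099, 3475, 5012 and 3849 CPM), S100a11 (3115, 1366, 6938 and 6999 CPM) and Anxa1 (569.9, 678.8, 2140 and 2132 CPM) lay above Mg in all libraries.

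Of the 5 members that could be tested in Gran, edgeR called 4 higher than in Mg (26.6% of all 1263 genes tested): Anxa1 by 10.16, S100a6 by 9.44, S100a11 by 7.77 and Anxa2 by 4.94 on the log2 scale. Vim differed by 1.72 (adjusted p 0.308). On counts rounded up per cell the differences were 7.75 for Anxa1, 6.79 for S100a6, 6.86 for S100a11 and 4.40 for Anxa2, and Vim was called as well, at 1.93 (adjusted p 8.79e-05 by edgeR). It was also called without replicate 3 (adjusted p 0.00948). S100a4, S100a10 and Crip1 were not tested, with 3, 3 and 7 counts in the Gran of all 4 libraries, and S100a4 was 136.1 CPM in replicate 1 and 0 in the other 3. The Gran sums are small, from 53 to 148 cells per library. In the plot of levels by cell type the S100a4, S100a10 and Crip1 points of Gran lie between 0 and 136.1 CPM.

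**Figure D2:**
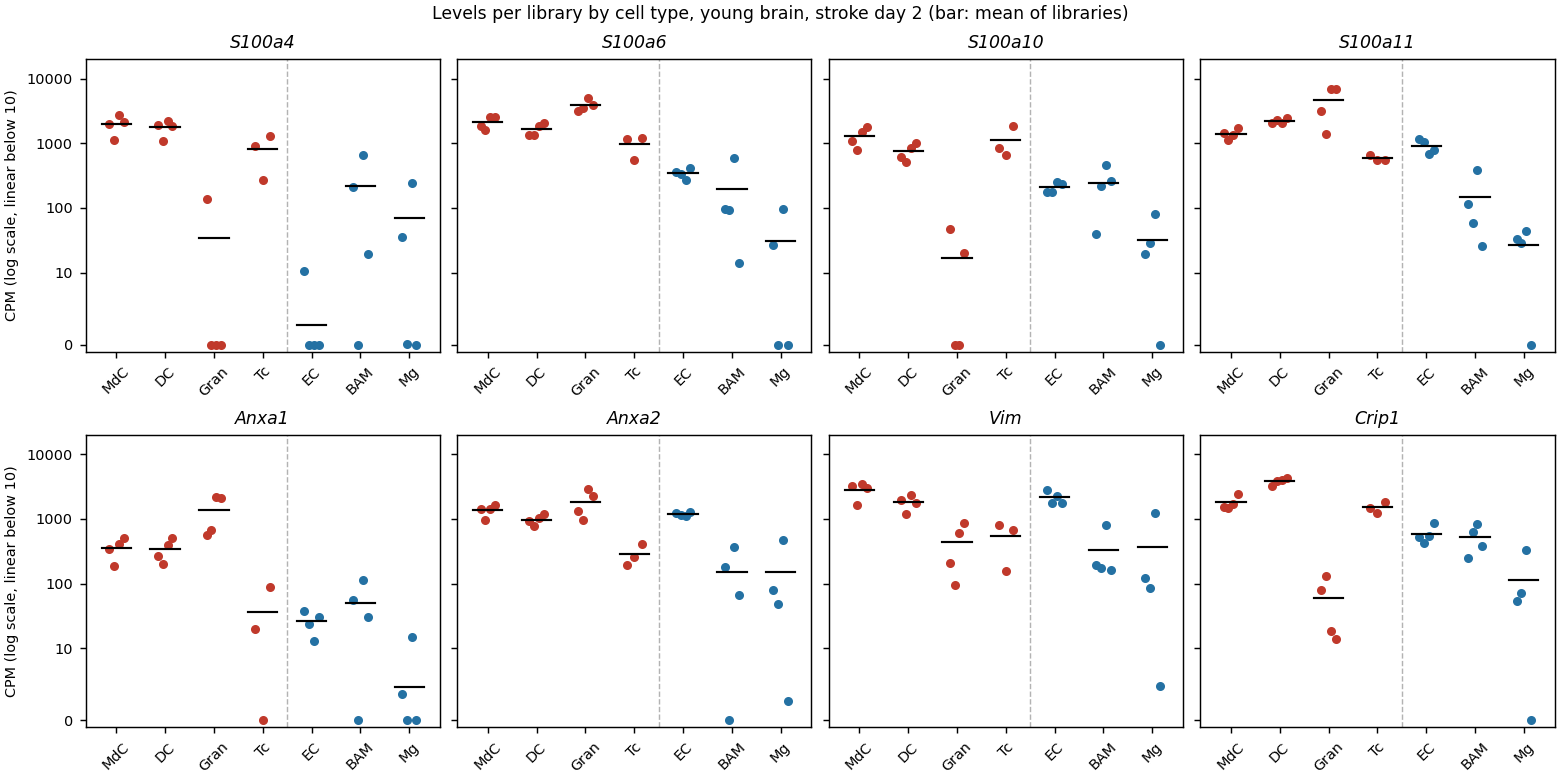
CPM of each gene (vertical axis, logarithmic and linear below 10) by cell type in young brain at day 2 after stroke, 1 point per library, with the mean as a bar, infiltrating types MdC, DC, Gran and Tc in red and resident types EC, BAM and Mg in blue. Mg are lowest or near it for most genes, EC reach the level of MdC for Anxa2 and Vim, and Gran are high for S100a6, S100a11, Anxa1 and Anxa2 and low for S100a4, S100a10 and Crip1.

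The order of the types at day 2 differed from gene to gene. For S100a4 it ran MdC (1979 CPM), DC (1753), Tc (828), NK (592), BAM (222), Bc (136), Mg (70.3), Gran (34.0), EC (2.67 CPM) and a single mural cell library at 0, and the libraries of every neighbouring pair overlapped. For S100a6, Gran (3859 CPM) came first and did not overlap MdC (2158 CPM). Gran were also first for Anxa1 (1380 CPM) and Anxa2 (1836 CPM), and in Anxa2 MdC (1360), NK (1201) and EC (1195 CPM) followed close together. For Vim the order began with MdC (2833 CPM), the mural cell library (2300), EC (2156) and DC (1806 CPM), and ended with Mg (362.1) and BAM (330.5 CPM). Mg ranked above BAM only through replicate 3 (1236 against 793.5 CPM). In replicates 1, 2 and 4 BAM were higher, at 193.5, 171.3 and 163.9 CPM against 123.8, 84.1 and 4.78 CPM. For Crip1 the mural cells (code MC, 1 library, 5781 CPM) and DC (3823 CPM) came before MdC (1796 CPM), none of these 3 overlapping.

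Resident types were not alike. In sham brain, BAM held 8 of 8 members above Mg (edgeR, 11.5% of all genes called higher), from 2.45 (S100a10) to 7.07 (S100a4) on the log2 scale, and EC held 6 of 6 tested above Mg (24.6% of all genes), led by Vim at 8.30 and Anxa2 at 8.06. These sizes rest on the low deposited counts of sham Mg. With counts rounded up per cell all were still called, BAM ran from 2.08 to 4.66 with S100a4 at 3.99, and EC had Vim at 6.28 and Anxa2 at 5.76. BAM are few, 52 to 282 cells per sham library, and their monocyte-derived marker sum ranged from 553 to 4019 CPM with 1 to 4 of 7 markers at 0, against 0.000209 to 21.4 CPM in sham Mg. Its part in the BAM levels was not tested. At day 2 BAM replicate 3 was high for S100a4 (654.8 CPM against 213.6, 0 and 19.3 CPM) and for Vim (793.5 CPM against 193.5, 171.3 and 163.9 CPM). That library lacked 46.6% of its rounded-up count, against 8.42% to 14.98% in the others, and rounded up it held 413.3 CPM of S100a4 and 538.8 CPM of Vim. Between stroke day 2 and sham edgeR called 0 of the 5 tested members in BAM (2.67% of all genes in either direction), with 1 at an unadjusted p under 0.05 and 0 by DESeq2.

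EC stood close to MdC for the annexin A2 and vimentin genes and far below it for S100a4. At day 2, edgeR called all 8 members higher in MdC than in EC (28.5% of all genes), but the size ran from 0.64 for Anxa2 (adjusted p 0.0024) and 0.83 for Vim (0.0010) to 9.86 for S100a4 on the log2 scale. The S100a4 size rests on 5.99 deposited counts in EC, all in replicate 1 (10.7 CPM), with the other libraries at 0. Most of its rounded-up count was absent there, as given below, and the size on rounded-up counts is not given. Anxa2 and Vim were each higher in MdC in 3 of the 4 libraries, and S100a11 overlapped too. At day 14 it was again 8 of 8 (30.4% of all genes), and Vim differed by 0.48 (adjusted p 0.0153 by edgeR) with MdC higher in 2 of 4 libraries, and was not called without replicate 4 (0.38). With scaling by library size instead of TMM, Anxa2 (0.15) and Vim (0.34) were no longer called at day 2, nor Vim at day 14 (0.01).

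In endothelial cells 5 members rose at day 2 after stroke, and none was called at day 14. Vim stood at 1175, 734.3, 573.6 and 487.7 CPM in sham, 2810, 1780, 2287 and 1748 CPM at day 2, and 1064, 895.1, 1035 and 715.4 CPM at day 14. Anxa2 stood at 558.8, 367.5, 401.2 and 508.6 CPM in sham, 1248, 1162, 1109 and 1264 CPM at day 2, and 293.8, 297.2, 366.8 and 320.0 CPM at day 14. Every day 2 library lay above every sham and every day 14 library for both genes.

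S100a11, the annexin A1 partner, stood at 545.2, 184.7, 134.5 and 188.6 CPM in sham EC and at 1166, 1029, 690.1 and 797.2 CPM at day 2. S100a6 stood at 130.1, 48.9, 0 and 57.4 CPM in sham and at 355.1, 335.5, 272.5 and 414.0 CPM at day 2. S100a10, the annexin A2 partner, stood at 172.3, 66.7, 48.6 and 137.4 CPM in sham and at 177.5, 176.4, 255.8 and 238.0 CPM at day 2. The groups did not overlap for any of the 3, narrowly so for S100a10, whose highest sham and lowest stroke libraries were close.

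By edgeR the log2 changes in EC at day 2 were 2.45 ± 0.48 for S100a6 (adjusted p 0.0051), 1.87 ± 0.36 for S100a11 (0.0045), 1.62 ± 0.26 for Vim (0.0017), 1.48 ± 0.20 for Anxa2 (0.00057) and 1.06 ± 0.31 for S100a10 (0.0341). These 5 of the 6 tested members compare with 6.89% of all 5833 genes called higher, and their median with Crip1 was 1.55 against 0.00 over all genes. Crip1 changed by -0.41 (0.324), and S100a10 was no longer called without sham replicate 2, 3 or 4 or without stroke replicate 3 or 4 (log2 change 0.89 to 1.16). Anxa1 was too low to test, with 13 summed counts in sham and 57 at day 2. Of the related genes, the actin and migration list had 4 of 16 tested called higher, led by Tmsb4x (thymosin beta 4, which binds actin monomers) at 1.26 ± 0.25 and Msn (moesin, which ties actin to the membrane) at 1.05 ± 0.20, and 0 of 5 other annexins were called by edgeR. The summed endothelial markers were 21490 to 30520 CPM in sham and 14460 to 20730 CPM at day 2, with none of 6 at 0. The monocyte-derived sum was 489.2 to 889.2 CPM in sham and 372.7 to 1367 CPM at day 2, with 2 to 4 of 7 markers at 0 in both, and the mural sum was 123.4 to 576.8 CPM and 73.7 to 252.3 CPM. The part of other cells in the EC changes was not tested.

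S100a4 was lower in stroke EC on the deposited scale, and that difference changed with the handling of fractional counts. It stood at 65.7, 21.2, 27.8 and 58.9 CPM in sham and at 10.7, 0, 0 and 0 CPM at day 2, without overlap. The filter on low counts left it untested, with 39.7 summed counts in sham and 5.99 at day 2. Of the rounded-up day 2 count, 90.6% was absent from the deposited values, against 9.82% in sham. Without the filter edgeR gave -3.60 (adjusted p 0.0032), and with counts rounded up -0.49 (adjusted p 0.435).

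At day 14 edgeR called 0 of the 6 tested members in EC against sham, and 0% of all genes, with 3 members at an unadjusted p under 0.05 and 0 called by DESeq2. Vim differed by 0.32 and Anxa2 by -0.52 on the log2 scale. Both comparisons share the 4 sham libraries. In the aged libraries the EC values of Vim and Anxa2 were also higher at day 2 than in sham. Vim stood at 626.0 and 995.7 CPM in sham, 1967, 2171 and 2346 CPM in stroke at day 2 and 999.5 CPM in the 1 library at day 14. Anxa2 stood at 551.7 and 558.0 CPM in sham and 865.4, 1274 and 1061 CPM at day 2. The other members are not given for aged EC. No test was run on aged EC.

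**Figure D3:**
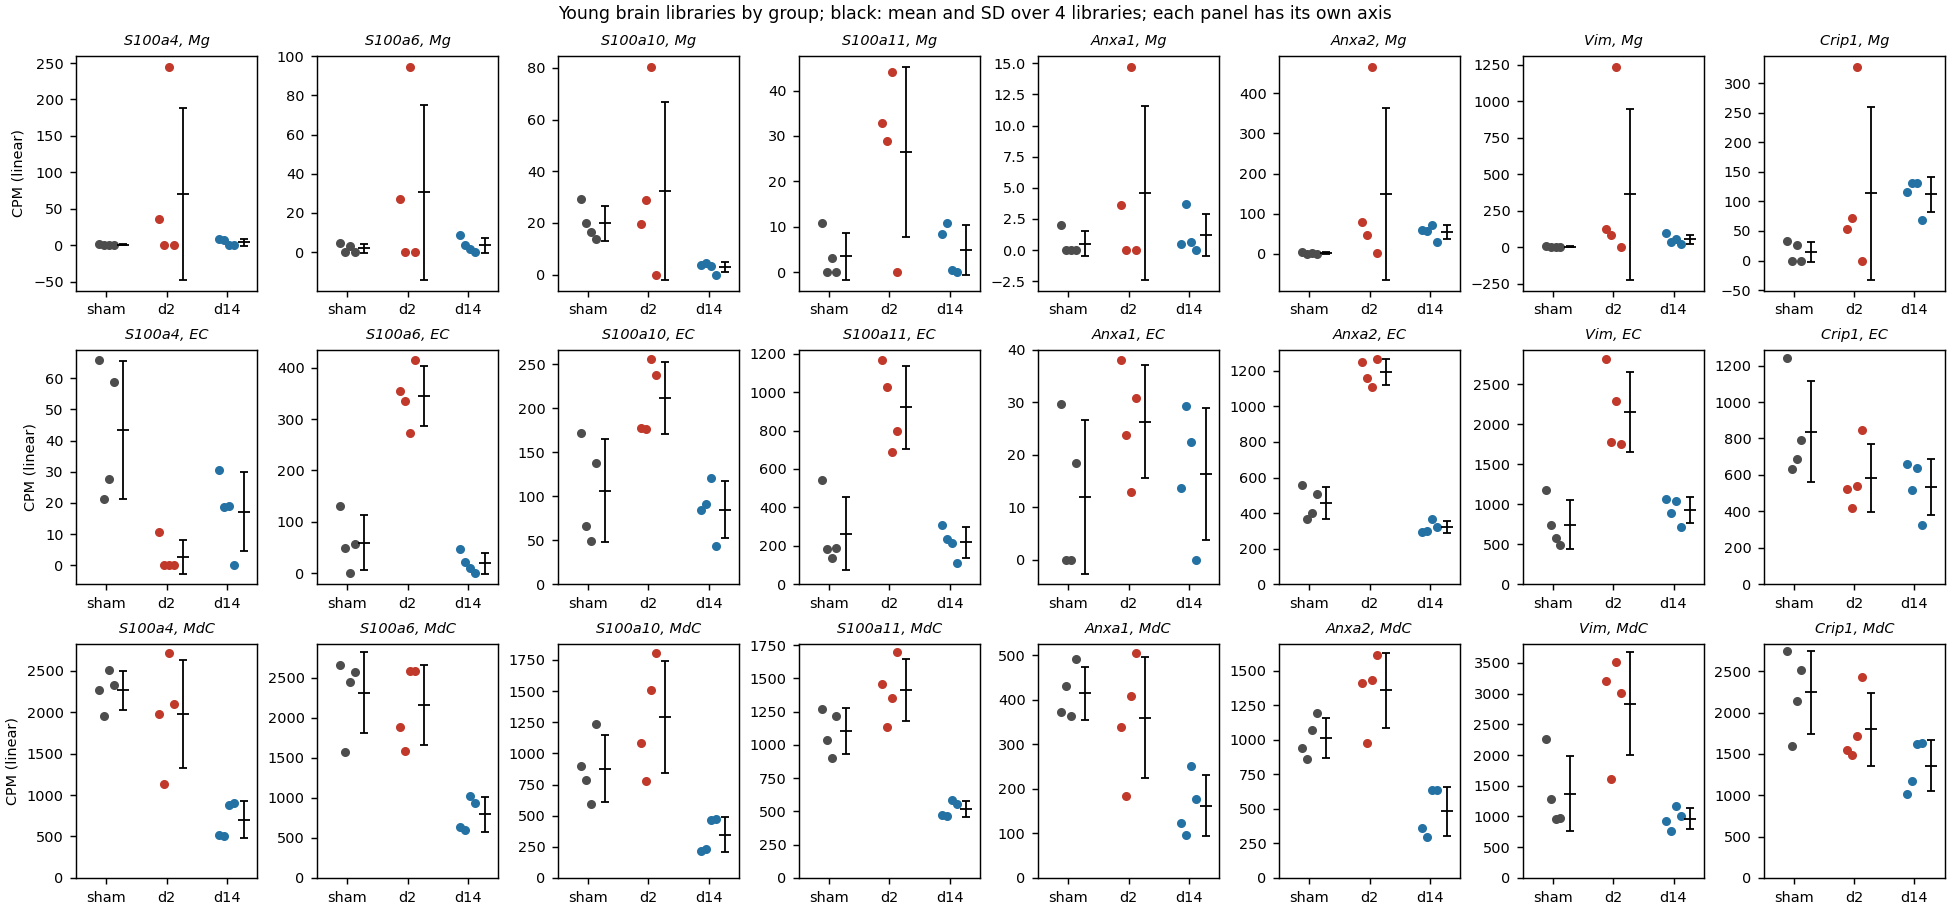
CPM of each gene (linear vertical axis, its own in each panel) in Mg, EC and MdC of young brain, 1 point per library for sham, stroke day 2 and stroke day 14, with the mean and SD over 4 libraries in black. The EC panels of S100a6, S100a11, Anxa2 and Vim peak at day 2, the MdC panels of 6 genes drop at day 14, and the Mg panels of Anxa2, Vim and Crip1 are near 0 in sham.

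In microglia Anxa2 and Vim were listed at or near 0 in sham and rose after stroke. Anxa2 was 4.52, 0, 2.08 and 0 CPM in sham, 79.4, 48.1, 466.1 and 2.69 CPM at day 2 and 59.6, 57.2, 72.1 and 30.7 CPM at day 14. Vim was 7.25, 0, 2.10 and 0 CPM in sham, 123.8, 84.1, 1236 and 4.78 CPM at day 2 and 98.6, 37.2, 55.6 and 24.7 CPM at day 14. Crip1 was 32.9, 0, 25.4 and 0 CPM in sham, 53.6, 72.3, 327.7 and 0 CPM at day 2 and 115.9, 130.8, 131.6 and 68.3 CPM at day 14. For all 3 the day 14 libraries lay above every sham library, whereas replicate 4 at day 2 fell among the sham values. Zeros were not confined to the members in these libraries, but were far more frequent among them. Members were counted where the sum rounds to 0, and other genes only where it is exactly 0. In sham replicates 2 and 4, where 7 of the 8 had a sum that rounds to 0, 13.4% and 15.6% of the genes at 200 CPM or more in the other types of the library were also listed at 0, against 3.70% and 9.02% in sham replicates 1 and 3. At day 2 this share was 1.19%, 1.51%, 0.758% and, in replicate 4, 9.16%, and at day 14 it was 0.780% to 7.19%. Its part in the Mg changes was not tested.

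By edgeR at day 2, Anxa2 rose by 5.44 ± 1.19 (log2 ± SE, adjusted p 0.0048) and Vim by 6.39 ± 1.41 (0.0051), 2 of the 6 tested members where 15.7% of all 10145 genes were called higher. An unadjusted p under 0.05 was reached by 3 and DESeq2 called 3. Without replicate 3 the changes were 4.77 (adjusted p 0.0069) and 4.92 (0.0074) by edgeR. S100a4 was at 4.79 (adjusted p 0.0565), S100a11 at 2.61 (0.143), Crip1 at 2.12 (0.21) and S100a10 at -0.11 (0.948). Without replicate 3 these 4 were at 4.02 (adjusted p 0.102), 2.60 (0.196), 1.63 (0.338) and -0.27 (0.852) by edgeR. S100a6 and Anxa1 were not tested, and the groups overlapped for all 8 genes. These folds are set against 9.29 summed counts of Anxa2 and 13.8 of Vim in the sham Mg of 4 libraries.

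At day 14, Anxa2 was up by 5.49 ± 1.12 (adjusted p 0.0054 by edgeR) and Vim by 4.90 ± 1.30 (0.0235), again 2 of 6 tested, where 10.6% of all genes were called higher. Crip1 was at 3.47 (adjusted p 0.0617), and S100a10, the one member found in every sham library of Mg (29.4, 20.1, 16.5 and 13.8 CPM), was at 3.81, 4.44, 3.25 and 0 CPM at day 14, a difference of -2.29 (0.108). Neither overlapped between groups. Between day 14 and day 2 edgeR called 0 of 6, with 0 at an unadjusted p under 0.05, 0 by DESeq2 and 6.93% of all genes called. Both stroke times share the sham libraries. Without sham replicate 2, 3 or 4, or without day 14 replicate 1, Vim was no longer called at day 14 (log2 change 4.43 to 4.88) and the count was 1. It was 4 without day 2 replicate 4.

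How many members rose in Mg depended on how the fractional counts were taken. With each count rounded up per cell, edgeR called 6 of 8 at day 2, where 17.3% of all genes were called higher: Vim at 3.98, Anxa2 at 3.52, S100a4 at 2.94, S100a6 at 1.77, S100a11 at 1.66 and Crip1 at 1.46 on the log2 scale. At day 14 it called these 6 again (11.3% of all genes), with Anxa2 at 3.52, Vim at 3.47 and Crip1 at 2.71, and S100a10 at -0.35 (adjusted p 0.556). The changes of Anxa2 and Vim were smaller on this scale than on the deposited one. The share of the rounded-up count absent from the deposited one was 81.1% for Anxa2 in sham Mg, 58.7% at day 2 and 25.4% at day 14, so it moved with the groups.

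**Figure D4:**
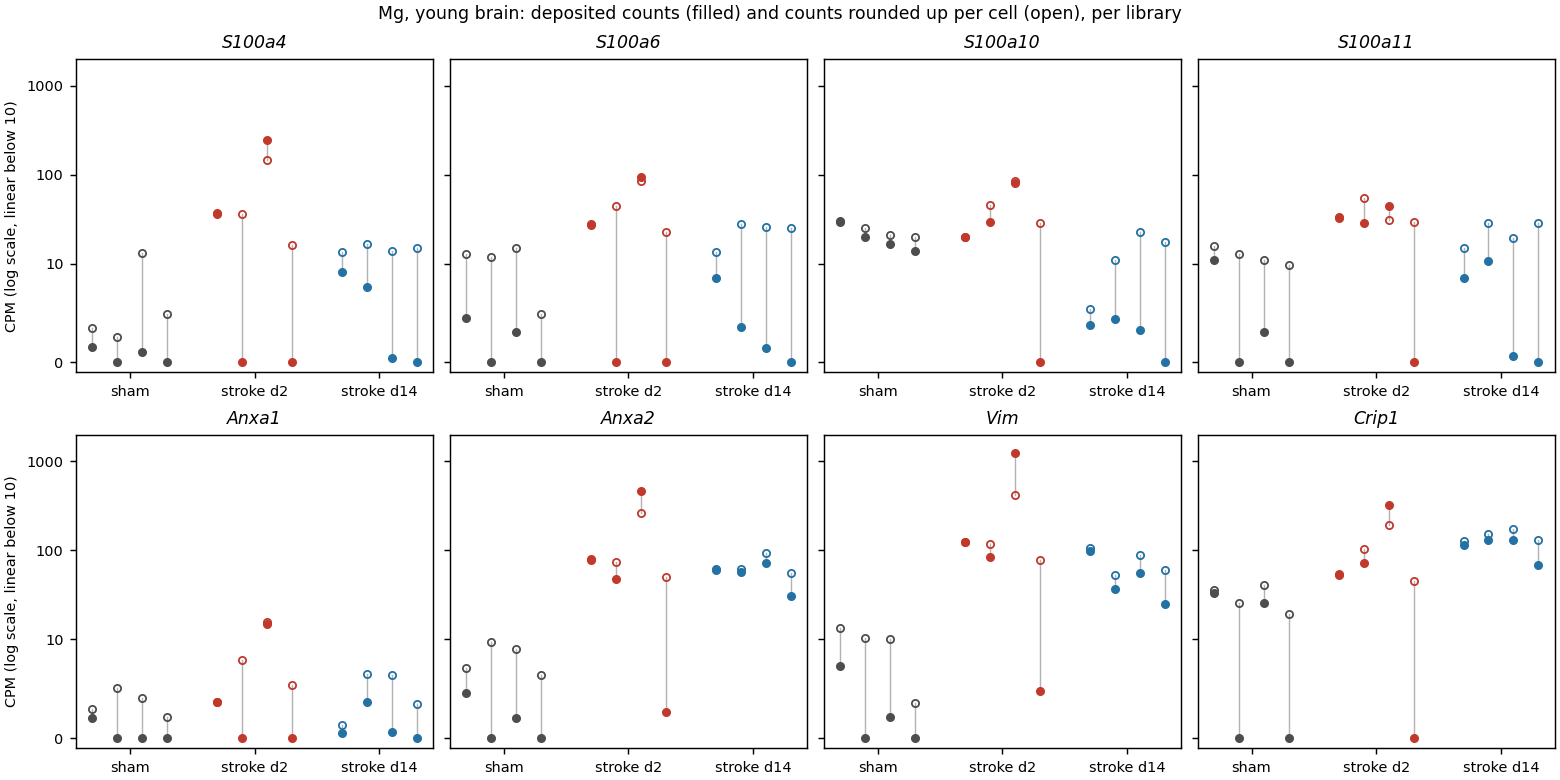
CPM of each gene in Mg of young brain from the deposited counts (filled) and from counts rounded up per cell (open), with a line joining both values of a library, for sham (grey), stroke day 2 (red) and stroke day 14 (blue). Sham libraries listed at or near 0 on the deposited scale lie above 0 when rounded up, and Anxa2 and Vim are higher after stroke on both scales.

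The summed markers of monocyte-derived cells were higher in Mg after stroke than in sham, with Fn1 a large part, though not every marker rose at day 14. In day 2 replicate 4 Fn1 was the only marker above 0. At day 14 its Mg mean was 59.35 CPM, and the next highest marker was Ms4a4c at 16.8 CPM. The sum of the 7 markers was 0.000209 to 21.4 CPM in sham Mg, with 2 to 6 of them at 0 in a library, 24.5 to 854.3 CPM at day 2 (0 to 6 at 0) and 31.1 to 156.4 CPM at day 14 (1 to 5 at 0). As a share of the MdC mean at day 2, Mg held 12.8% for Vim, 10.96% for Anxa2, 6.32% for Crip1 and 3.55% for S100a4, and among the markers 29.2% for Fn1, 10.6% for Ly6c2, 4.06% for Plac8 and 0.856% for Ccr2. The remaining markers were at 3.42% for Ms4a4c, 1.28% for F10 and 0.864% for Chil3. Replicate 3 carried most of the Mg means of Vim, Anxa2 and Ly6c2. For Vim the shares within replicates 1 to 4 were 3.87%, 5.20%, 35.2% and 0.159%, for Anxa2 5.61%, 4.92%, 32.5% and 0.167%, and for Ly6c2 0.999%, 0%, 29.5% and 0%. Plac8 was at 8.59% in replicate 3 and at 0% to 3.25% in the others, whereas Fn1 was at 10.5% there and at 14.96% to 34.7% in the others. At day 14 the shares of the means were 11.4% for Anxa2, 8.22% for Crip1, 5.59% for Vim, 0.616% for S100a4 and 0.424% for S100a6. Among the markers at day 14, they were 32.9% for Fn1, 0.500% for Ly6c2, 0.438% for Plac8 and 0.259% for Ccr2. Ms4a4c was at 1.65%, Chil3 at 0.104% and F10 at 0%. From sham to day 14 the Mg mean of Chil3 went from 1.15 to 0.396 CPM and that of Ccr2 from 3.37 to 3.70 CPM. F10 was 0 in both, and Fn1 went from 0 to 59.35 CPM. Rounded up per cell, Chil3 went from 5.08 to 3.03 CPM, Ccr2 from 15.8 to 25.5 CPM and F10 from 0.176 to 2.43 CPM. The low shares depended on the fractional counts. With counts rounded up per cell they were 2.25% for S100a4, 3.06% for S100a6, 1.38% for Ly6c2, 1.48% for Plac8 and 1.89% for Ccr2, while Anxa2 was at 14.9%, Crip1 at 11.3%, Vim at 8.30% and Fn1 at 35.2%. At day 2 the rounded-up shares were 6.87% for Vim, 8.98% for Anxa2, 5.80% for Crip1, 3.17% for S100a4, 32.1% for Fn1, 4.08% for Ly6c2, 3.20% for Plac8 and 1.96% for Ccr2. The part of MdC RNA in the Mg levels was not tested.

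Related genes also rose in Mg. Anxa5, an annexin that binds phosphatidylserine, went from 34.9 ± 5.9 CPM in sham to 312.5 ± 224.8 CPM at day 2 and 208.7 ± 65.9 CPM at day 14 (SD, n = 4 each). It rose by 2.99 and 3.04 on the log2 scale, and Anxa4 by 1.45 and 1.84. Of the 5 other annexins tested, edgeR called 3 higher at day 2 and 2 at day 14. S100a1 (1.55 and 2.03) and S100a13 (1.36 and 1.23) were the 2 other S100 genes tested, and both were called at both times. Nes, encoding the filament protein nestin, rose by 4.56 and 3.18, and Lmna, encoding lamins A and C, by 3.21 and 2.95. Both are set against few counts, 7 of Nes and 13 of Lmna in sham Mg. Changes of the related genes on rounded-up counts are not given. Of 20 actin and migration genes, 10 were called higher and 1 lower at day 2 (median 1.07 against -0.05 over all genes), where 15.7% of all genes were called higher. At day 14, 3 of the 20 were higher (median 0.18 against -0.04), where 10.6% of all genes were, a share near the background. Among them was Capg, a capping protein of actin filaments, at 4.17 and 3.43. Without replicate 3 at day 2, edgeR called 2 other annexins and again 10 actin and migration genes higher at that time, with Anxa5 at 2.73, Anxa4 at 1.45, Nes at 4.64, Lmna at 3.26 and Capg at 3.76.

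In aged Mg, Vim was 32.1 and 19.1 CPM in sham and 454.1, 377.2 and 0 CPM in stroke at day 2, and Anxa2 was 10.6 and 7.79 CPM against 108.6, 102.7 and 27.2 CPM. The Anxa2 values did not overlap, and those of Vim did because 1 stroke library was at 0. By edgeR 0 of 7 tested members and 0% of all genes were called, with 2 members at an unadjusted p under 0.05 and 1 called by DESeq2. Anxa2 differed by 3.21 (adjusted p 0.0831) and Vim by 3.56 (0.216), with 2 libraries against 3. Without stroke replicate 2 (female) edgeR called 2.

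In monocyte-derived cells 6 of the members fell between day 2 and day 14. S100a4 went from the day 2 values above to 514.9, 500.3, 875.9 and 907.5 CPM, and S100a6 to 630.8, 592.0, 1026 and 939.2 CPM. S100a10 went from 1080, 778.8, 1506 and 1802 CPM to 218.0, 228.9, 465.7 and 469.2 CPM, and S100a11 from 1458, 1138, 1350 and 1701 CPM to 476.8, 464.9, 585.5 and 553.2 CPM. Anxa2 went to 362.5, 295.1, 635.4 and 635.6 CPM and Vim to 928.4, 760.1, 1165 and 1011 CPM. All 4 day 14 libraries lay below all 4 day 2 libraries for these 6 genes. The share of all genes with such a separation is not given.

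By edgeR 6 of 8 fell, where 0.965% of all 8080 genes were called lower. The log2 changes were -1.97 ± 0.37 for S100a10 (adjusted p 0.0122 by edgeR), -1.59 ± 0.36 for Vim (0.0355), -1.55 ± 0.32 for S100a4 (0.0229), -1.54 ± 0.30 for Anxa2 (0.0148), -1.49 ± 0.31 for S100a6 (0.0208) and -1.49 ± 0.25 for S100a11 (0.0076). The folds ran from 2.80 to 3.91, and the median of the 8 was -1.52 against 0.04 over all genes. Anxa1 changed by -1.21 (adjusted p 0.112) and Crip1 by -0.46 (0.647), and both overlapped, with Crip1 at 1551, 1485, 1712 and 2436 CPM at day 2 and 1020, 1171, 1616 and 1629 CPM at day 14. Same-numbered libraries deviated together here, and with the replicate number as a block 7 of 8 were called, Anxa1 with them at -1.19 (adjusted p 0.0119 by edgeR). The count rested on single libraries: it was 0 without day 14 replicate 2, 1 without day 2 replicate 4 or without day 14 replicate 1, and 3 without day 2 replicate 3 or without day 14 replicate 4. DESeq2 called 7.

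Of the related genes in MdC, Lmna changed by -2.41 (88.6 to 16.2 CPM) and Fpr2 by -1.90 (59.6 to 16.2 CPM), both called lower, 2 of 5 partners and relatives tested, and edgeR called 0 of 5 other annexins and 0 of 20 actin and migration genes. The summed MdC markers stood at 4727 to 9977 CPM at day 2 and 6468 to 9686 CPM at day 14 with none of 7 at 0, so they overlapped. The microglial marker sum was 270.3 to 655.4 CPM at day 2 and 289.2 to 1807 CPM at day 14. The dendritic sum, of a list also high in Mg, was 7.21 to 37.3 and 44.9 to 91.7 CPM. Their part in the fall was not tested. The few MdC of sham brain held S100a4 at 2266, 1947, 2513 and 2324 CPM and Vim at 2261, 1287, 967.0 and 976.4 CPM. For S100a4 they lay above all day 14 libraries, while for Vim their mean of 1373 CPM was nearer day 14 (966 CPM) than day 2 (2833 CPM) and their libraries overlapped those of day 14. In the 1 aged day 14 library S100a4 was 1199 CPM and Vim 1503 CPM.

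For S100a4 the change in MdC showed in the share of cells as well as in the level. The MdC shares of the other members, and the range over libraries, are not given. A count of S100a4 was present in 74.3% of 7225 MdC at day 2 (exact 95% interval 73.3% to 75.3%) and in 38.5% of 2898 at day 14 (36.7% to 40.3%). These intervals pool the cells of all libraries of a group. They cover counting error only and not the spread between libraries, so they do not test the change between days. After thinning to 500 counts per cell, which kept 5612 and 2166 of them, the shares were 58.6% and 26.6%. A count was taken as present where the deposited value rounds to at least 1. By that cut the share at day 2 was 1.45% of 2693 Mg, or 0.558% after thinning (1933 cells kept), and 0.0401% of 2491 EC. Fractions below the cut are left out there: with values rounded up per cell the S100a4 counts were 131 in Mg and 64 in EC. Median depths ran from 679.5 to 1301 counts per cell in the MdC libraries of day 2 and from 411.8 to 1753 in those of day 14, and from 337.8 to 1489 in Mg and 476.2 to 1008 in EC at day 2. For Vim in EC the share was 27.6% of 1779 cells in sham and 55.1% of 2491 at day 2, and 32.3% and 55.6% after thinning (649 and 1419 cells kept), with library medians of 285.8 to 605.6 counts per cell in sham.

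Within MdC the authors' subtypes differed in S100a4 from 2446 ± 622 CPM in MdC3 (SD, n = 12 libraries of the young groups) to 425 ± 547 CPM in MdC6 (n = 7). MdC6 was lowest for all 8 members, with Vim at 951.3 CPM and Crip1 at 651.0 CPM. Among EC, EC2 had the highest Vim (2439 CPM), Anxa2 (1394 CPM) and S100a11 (1123 CPM). Of the Mg subtypes, Mg4 had most S100a4 (42.5 CPM), Anxa2 (106.4 CPM) and Vim (230.9 CPM). BAM2 held 307.1 CPM of S100a4, BAM1 4.62 CPM and BAM3 0 CPM. Subtypes were drawn by the authors and their shares differ between groups, so these values are descriptions.

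In blood monocytes none of the members was called at either time. Vim in Mo was 1997, 1459, 1421 and 1571 CPM at day 2 after stroke. By edgeR 0 of 8 were called at day 2 (0% of all genes, 0 members at an unadjusted p under 0.05, 0 by DESeq2) and 0 of 8 at day 14 (0.254% of all genes in either direction, 1 at an unadjusted p under 0.05, 0 by DESeq2). A missed threshold does not show that the levels were equal. Neutrophils held S100a6, S100a11, Anxa1, Anxa2 and Vim, and most of their libraries were at 0 for S100a4, S100a10 and Crip1, with none above 16.3 CPM.

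Vim in Neu was 1337, 1299, 662.3 and 837.5 CPM in sham, 2168, 1426, 907.9 and 1109 CPM at day 2 and 507.1, 593.8 and 344.1 CPM at day 14. It fell at day 14 against sham, with a log2 change of -1.41 ± 0.36 (adjusted p 0.0315 by edgeR) without overlap, 1 of 5 tested members where 3.8% of all genes were called lower. S100a6, at 7732, 4460, 7466 and 5926 CPM in sham and 3727, 3898 and 3923 CPM at day 14, differed by -1.09 (0.0501) and Anxa1 by -1.05 (0.0891). At day 2 edgeR called 0 of 5 and 0% of all genes, with 0 members at an unadjusted p under 0.05 and 0 by DESeq2. The day 14 count was 3 by DESeq2, 0 without sham replicate 1 or without day 14 replicate 1 or 3, and 2 without day 14 replicate 2 or without day 2 replicate 1 or 2, and Vim was no longer called without sham replicate 2 either. In brain Gran, Anxa1 was 3179, 3409, 2497 and 3704 CPM in sham, the values at day 2 given above, and 329.8, 205.4, 693.7 and 281.4 CPM at day 14, in which every stroke library lay below every sham library. The day 14 values rest on 6.95, 1.97, 65.8 and 10.9 counts. The neutrophil marker sum of Gran was 223500 to 296100 CPM in sham, 112200 to 205400 CPM at day 2 and 52360 to 66860 CPM at day 14. Its part in the Anxa1 levels was not tested. Gran were not fitted between groups.

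S100a10, S100a11 and Vim were higher in brain MdC than in blood Mo at day 2. S100a10 stood at 688.4, 399.6, 516.4 and 593.4 CPM in Mo and S100a11 at 1101, 962.7, 759.4 and 1030 CPM, each below every MdC library. By edgeR these differed by 1.53 ± 0.35 (S100a10, adjusted p 0.0070), 1.10 ± 0.33 (Vim, 0.027) and 0.84 ± 0.27 (S100a11, 0.0396), 3 of 8 where 13.4% of all genes were called higher. S100a4 differed by -0.07, S100a6 by 0.24, Crip1 by 0.06, Anxa1 by -0.21 and Anxa2 by 0.57, none called. The count was 1, with only S100a10 called, without blood stroke replicate 2, 3 or 4, and S100a11 was lost also without blood replicate 1 or brain replicate 4. Of related genes Lmna was higher in brain by 2.62, Anxa4 by 1.91 and Capg by 1.69, and the formyl peptide receptor Fpr1 was called lower there (-1.79). Brain cells were digested and sorted and blood cells were not, so tissue and preparation cannot be told apart.

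Brain Gran and blood Neu did not pass the threshold for any of 5 tested members at day 2 (0 by edgeR, 9.16% of all genes in either direction, 1 at an unadjusted p under 0.05, 1 by DESeq2). Vim in Gran, 209.3, 95.7, 610.3 and 849.4 CPM, lay below all Neu libraries, a difference of -1.45 (adjusted p 0.0773 by edgeR). T cells of brain and blood were compared at day 14, in a comparison added after the levels had been seen. S100a4 was 1262, 579.4, 1016 and 549.9 CPM in brain Tc and 168.3, 75.1 and 92.6 CPM in blood Tc. S100a6 was 1393, 942.6, 1460 and 758.9 CPM against 182.1, 156.2 and 165.7 CPM. Neither overlapped.

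In that comparison edgeR called 5 of 7 tested members higher in brain Tc (5.73% of all genes): S100a4 by 2.79 ± 0.40 (adjusted p 0.0033), S100a6 by 2.64 (0.00085), Anxa2 by 1.99 (0.0137), S100a11 by 1.74 (0.0011) and S100a10 by 0.95 (0.0419). Vim differed by 0.86 (0.175) without overlap, with 737.8, 325.6, 1025 and 389.1 CPM in brain and 310.8, 310.9 and 299.7 CPM in blood. The count was 3 without blood replicate 2 and 2 without blood replicate 3, and S100a10 was lost without any 1 of the 7 libraries. Without brain replicate 1 the count stayed at 5, since Anxa1, not among the 7 tested with all libraries, then passed the filter and was called (1.71, adjusted p 0.0437 by edgeR). The T cell subtypes differed as widely: in blood, Tc5 held 1393 CPM of S100a4 and Tc1 5.13 CPM, and in brain Tc4 held 2354 CPM. The monocyte-derived marker sum was 1989 to 2615 CPM in brain Tc and 987.8 to 1400 CPM in blood Tc, with 2 to 3 of 7 at 0 in both, and its part in the difference was not tested.

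**Figure D5:**
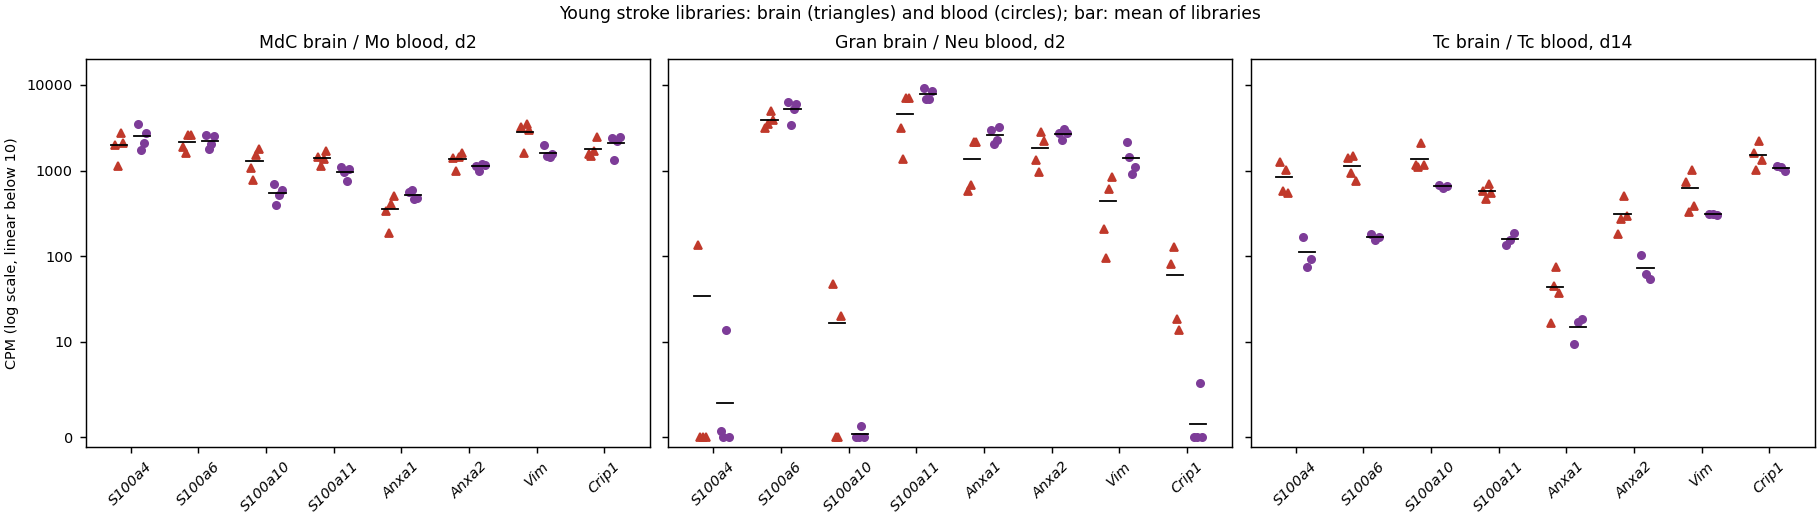
CPM of each gene (vertical axis, logarithmic and linear below 10) in brain (red triangles) and blood (purple circles), 1 point per library with the mean as a bar, for MdC against Mo and Gran against Neu at day 2 and for Tc at day 14 after stroke. S100a10 and S100a11 of MdC lie above Mo, S100a4, S100a10 and Crip1 are at or near 0 in most Neu libraries, and S100a4 and S100a6 of brain Tc lie above blood Tc.

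In B cells of blood, subtype Bc3 had the highest level of every member but Anxa1. It held 5461 CPM of Crip1, and the other Bc subtypes 759.9 to 1178 CPM. It also held 1506 CPM of S100a6 and 2400 ± 880 CPM of Vim (SD, n = 10 libraries). Blood monocytes ran from 3542 CPM of S100a4 in Mo1 to 1035 ± 311 CPM in Mo3, which was lowest for all 8 members.

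Over the 30 brain type and group means of the young mice (log2 of CPM + 1), the members shared a profile only in part. Pairwise Pearson correlations ran from 0.06 (Anxa1 with Crip1) to 0.85 (S100a6 with Anxa1). Each gene against the mean of the other 7 ran from 0.51 (S100a10) to 0.83 (S100a11). S100a4 and S100a10 correlated at 0.71 and S100a11 and Anxa2 at 0.81. Of 6372 genes averaging 20 CPM or more, the 6 most like the members' mean profile were Fxyd5 (0.85), Adgre5 (0.81), Ly6c2 (0.78), Ahnak (0.77), Cnn2 (0.74) and Glipr2 (0.73). Units of 1 group share libraries, and the shared zeros of Mg and EC weigh in all these values.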

How the data were processed

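Drop-seq counts of 29 libraries were read from the deposited tables of expected counts per gene and cell, 1 table per library. The authors' metadata gave each cell's type codes, a count of detected genes and a percent of mitochondrial counts, per the deposited files. The submitters' processing notes name mm10 and Seurat. The alignment and the step that made the counts fractional are not given in the sources used here. Every deposited cell was kept, and no doublet caller was run.

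The members and lists were chosen with earlier results of these data known. Counts were summed per library and type (at least 20 cells), rounded to whole numbers and fitted over all genes with edgeR 4.0.16 (quasi-likelihood, TMM scaling, filterByExpr; R 4.3.3, limma 3.58.1). P-values are two-sided and Benjamini-Hochberg adjusted over all genes tested, and a gene was called at an adjusted p under 0.05. The SE of a log2 change was taken back from the test, as its absolute value over the square root of the F statistic. A gene that the filter left out is "not tested". Fits between groups held all young groups of a tissue, and aged and brain against blood fits only the groups compared. Comparisons of types within a library had the library as a block. Where libraries are said not to overlap, the share of all genes without overlap is not given. In all, 27 comparisons were made, 1 of them added after the data were seen. Scripts were tested on simulated data. Other packages were Python 3.11.15, numpy 2.4.6, pandas 2.3.3, scipy 1.17.1 and matplotlib 3.10.9.

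The 8 members are always named. Of each related list (6 other annexins, 8 other S100 genes, 9 partners and relatives, 20 actin and migration genes) up to 2 called genes of largest log2 change per comparison are named, not all of them printed. The 6 genes most like the members were ranked by Pearson correlation with their mean standardised profile, leaving out predicted, mitochondrial, ribosomal protein, haemoglobin and immunoglobulin genes.

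The alternatives were DESeq2 1.42.0, library size alone, no filter, at least 50 cells per type, the top 5% of cells by count left out, counts rounded up per cell, the replicate number as a block and each library left out in turn. The correlation of same-numbered libraries' deviations was over 0.1 in every pair only for MdC at day 14 against day 2 (0.25 to 0.75), with the numbers taken from the titles. Thinning drew 500 counts per cell. Intervals are exact at 95% and cover counting error only. Libraries pool animals, so p-values measure only the spread between these libraries.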

Additional observations from a re-analysis of the deposited data

Results flagged for a closer look

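In groups of 4 libraries, a member's highest or lowest library was set apart by Dixon's test at the 95% level, from its gap to the next library over the group's range. Of 144 groups tested 18 were set apart in this way, and in all 18 it was the highest library. The test's rate of about 1 in 20 holds for normally distributed values. A group with all but 1 library at 0 is set apart by any count, and the members share libraries. The 18 can therefore not be set against that rate.

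Replicate 3 of stroke day 2, whose 58 Mg stood apart throughout, was far above the other 3 in Mg for Vim (1236 CPM against 4.78 to 123.8), Anxa2 (466.1 CPM against 2.69 to 79.4) and S100a4 (244.9 CPM against 0 to 36.2). These rest on 32.5, 12.3 and 6.45 summed counts. The same replicate was above the others in BAM, with 95 cells, for Vim (793.5 CPM against 163.9 to 193.5) and S100a6 (590.0 CPM against 14.0 to 97.0).

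In EC, S100a11 of sham replicate 1 was 545.2 CPM against 134.5 to 188.6 in the others, and S100a4 of stroke day 2 replicate 1 was 10.7 CPM against 0. S100a10 in brain Tc at day 14 was 2103 CPM in replicate 3 against 1091 to 1166. Crip1 in sham BAM was 1406 CPM in replicate 4, with 52 cells, against 459.7 to 513.6. S100a4 in Gran at day 2 was 136.1 CPM in replicate 1 against 0, on 2.60 counts.

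The others were values of a few counts. Anxa1 in Mg was 2.01 CPM in sham replicate 1 against 0, and 3.69 CPM in day 14 replicate 2 against at most 0.622. In blood Neu of sham, Crip1 was 5.24 CPM and S100a4 0.913 CPM in replicate 3, and S100a10 was 1.67 CPM in replicate 2. In Neu of stroke day 2, replicate 3 held 13.7 CPM of S100a4, 5.65 CPM of Crip1 and 1.16 CPM of S100a10, against at most 0.626 CPM elsewhere.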

How the results depend on the processing

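Over the 106 results in which a member was called, 1307 values were computed under the alternatives: 1228 kept their direction and side of the threshold, 79 kept the direction but missed the threshold, and none changed direction. Outside these, 28 other member results, 8 of them of members too low to test with all libraries, gained a call under at least 1 alternative, among them S100a4, S100a11 and Crip1 in Mg at day 2 and at day 14 with counts rounded up per cell. The comparisons of types within a library kept their counts of called members within a factor of 1.5 under every alternative run. With the replicate number as a block, the count went from 2 to 4 in Mg at day 2, from 2 to 4 in Mg at day 14 and from 5 to 3 for Tc of brain against blood; these libraries share only a number. With counts rounded up per cell it was 6 for Mg at day 2, 6 for Mg at day 14, 1 for Mg at day 14 against day 2, 2 for the interaction, 2 for Neu at day 14 and 1 for Gran against Neu. DESeq2 called 1 in aged Mg, 3 in Neu at day 14 and 1 in Gran against Neu. Without the filter it was 2, 3 and 3 for these. At least 50 cells gave 1 in BAM at day 2, the top 5% of cells left out 2 in Neu at day 14, and library size alone 1 in Gran against Neu. Leaving out 1 library gave 0 to 7 for MdC at day 14 against day 2, 1 to 4 for Mg at day 14 against sham, 0 to 1 for Mg at day 14 against day 2, 0 to 1 for BAM, 0 to 2 for aged Mg, 0 to 2 for Neu at day 14, 1 to 4 for MdC against Mo, 0 to 1 for Gran against Neu and 2 to 5 for Tc. The cause of these moves was not tested. Rounding counts up moved 12 of 24 group means of the members in Mg by more than 1 SD, 1 of 24 in EC and 0 of 24 in MdC. Few counts limit the members in Mg, where several rest on fewer than 50 counts per group, and in Gran, where 3 were too low to test.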
